A study of Homo sapiens with 10 samples.

Results

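A set of 30 genes whose transcription p53 is known to switch on was described across 2 human liver tumour lines that carried a decoy against the miR-17 family of microRNAs or a control decoy. The genes were taken by symbol from a list of p53-activated genes. The list uses no measured value, but it was chosen with earlier results of these data known. All 30 were among the 19215 gene symbols counted, and all 30 were among the 13349 that had enough counts to be tested. The HepG2 miR-17 TuD group (3 libraries) was set against the HepG2 NC TuD group (3 libraries), and the SK-Hep1 miR-17 TuD group (2 libraries) against the SK-Hep1 NC TuD group (2 libraries). HepG2 is an established line that keeps many hepatocyte traits, and SK-Hep1 is a line from liver cancer whose origin has been described as endothelial.

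TuD stands for tough decoy, a hairpin RNA that holds a microRNA and keeps it from its targets, and NC for negative control. Each group had been infected with lentivirus, 5 infectious units to a cell (multiplicity of infection), for 48 h with 10 µg/mL polybrene. Infected cells were then selected for 2 weeks with 1 µg/mL puromycin, and the medium held 10% serum. Resistant colonies were pooled, so each group is 1 stable line. The labels do not say that replicate libraries came from separate cultures, so p-values measure the spread between these libraries, which may be technical. What the decoy did and what changed while each stable line was made cannot be told apart. The labels name no DNA-damaging agent.

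p53 is a transcription factor that is held at a low level by the ubiquitin ligase MDM2 and rises when DNA is damaged or a cell is stressed. It binds an element made of a pair of 10-base half-sites and raises genes that halt the cell cycle, repair DNA, change metabolism or lead to cell death. Some of its targets, MDM2 among them, act back on p53 and limit the response. The miR-17 family shortens the life of messenger RNAs that hold its seed match, of which CDKN1A, a main p53 target, is a known one.

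The libraries held 12884225 to 15076431 counts in genes. The decoys and the microRNAs themselves are not in the gene tables, so their levels were not analysed here. Over 12 hepatocyte genes, summed levels were 50020 to 52490 CPM (gene counts scaled by TMM to a common library total) in HepG2 miR-17 TuD and 57723 to 59987 CPM in HepG2 NC TuD. In SK-Hep1 they were 76.6 to 82.7 CPM in miR-17 TuD and 85.4 to 107 CPM in NC TuD. There, 3 of the 12 were called higher and 5 lower in miR-17 TuD, against 0.667% and 0.202% of all genes tested. Several of the 12 were at trace levels in SK-Hep1. ALB was at 0.0305% and 0.0547% of its HepG2 NC TuD mean in NC TuD, and at 0% and 0.00206% in miR-17 TuD. APOA1 and TTR were at 0 in miR-17 TuD. Endothelial markers were also at trace levels in SK-Hep1. The sum of 6 was 0.42 to 0.672 CPM in miR-17 TuD and 0.703 to 1.18 CPM in NC TuD, and PECAM1 and KDR were at 0 in all 4 SK-Hep1 libraries. In HepG2 the same sum was 3.87 to 5.60 CPM in miR-17 TuD and 4.96 to 5.88 CPM in NC TuD. The described origin of SK-Hep1 was not tested.

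The first comparison asked how the p53-activated genes of HepG2 stood in the line that carried the miR-17 decoy. Of the 30, 9 were higher and 2 lower in HepG2 miR-17 TuD than in HepG2 NC TuD, and 19 did not pass the test, which was edgeR's quasi-likelihood test at an adjusted p below 0.05 over all genes tested. Among all genes tested, 10.7% were called higher and 8.58% lower, 19.3% in all. At an unadjusted p below 0.05, 13 of the 30 members passed, and 30.2% of all genes. The share of members called higher was 30%, and the share called lower was 6.67%. The 9 that rose were ACER2, SPATA18, DDB2, EDA2R, FDXR, TP53I3, ZMAT3, RRM2B and POLH, and the 2 that fell were CCNG1 and DRAM1.

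The changes were small. The rises ran from 0.15 to 0.67 on the log2 scale with a median of 0.24, and 9 of the 11 calls were below a 1.25-fold change. The median log2 fold change over the 30 members was 0.09, against 0 over all genes tested. Of the 30 values, 23 were positive, or 76.7%, as were 49.3% over all genes tested. In 11 members every miR-17 TuD library lay above every NC TuD library, a pattern found in 16.1% of all genes tested. In 2 members, CCNG1 and TRIAP1, every miR-17 TuD library lay below, as in 14.9% of all genes. Without miR-17 TuD library 1 the number of members called fell to 6, and without NC TuD library 1 or NC TuD library 2 it was 7.

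**Figure D1:**
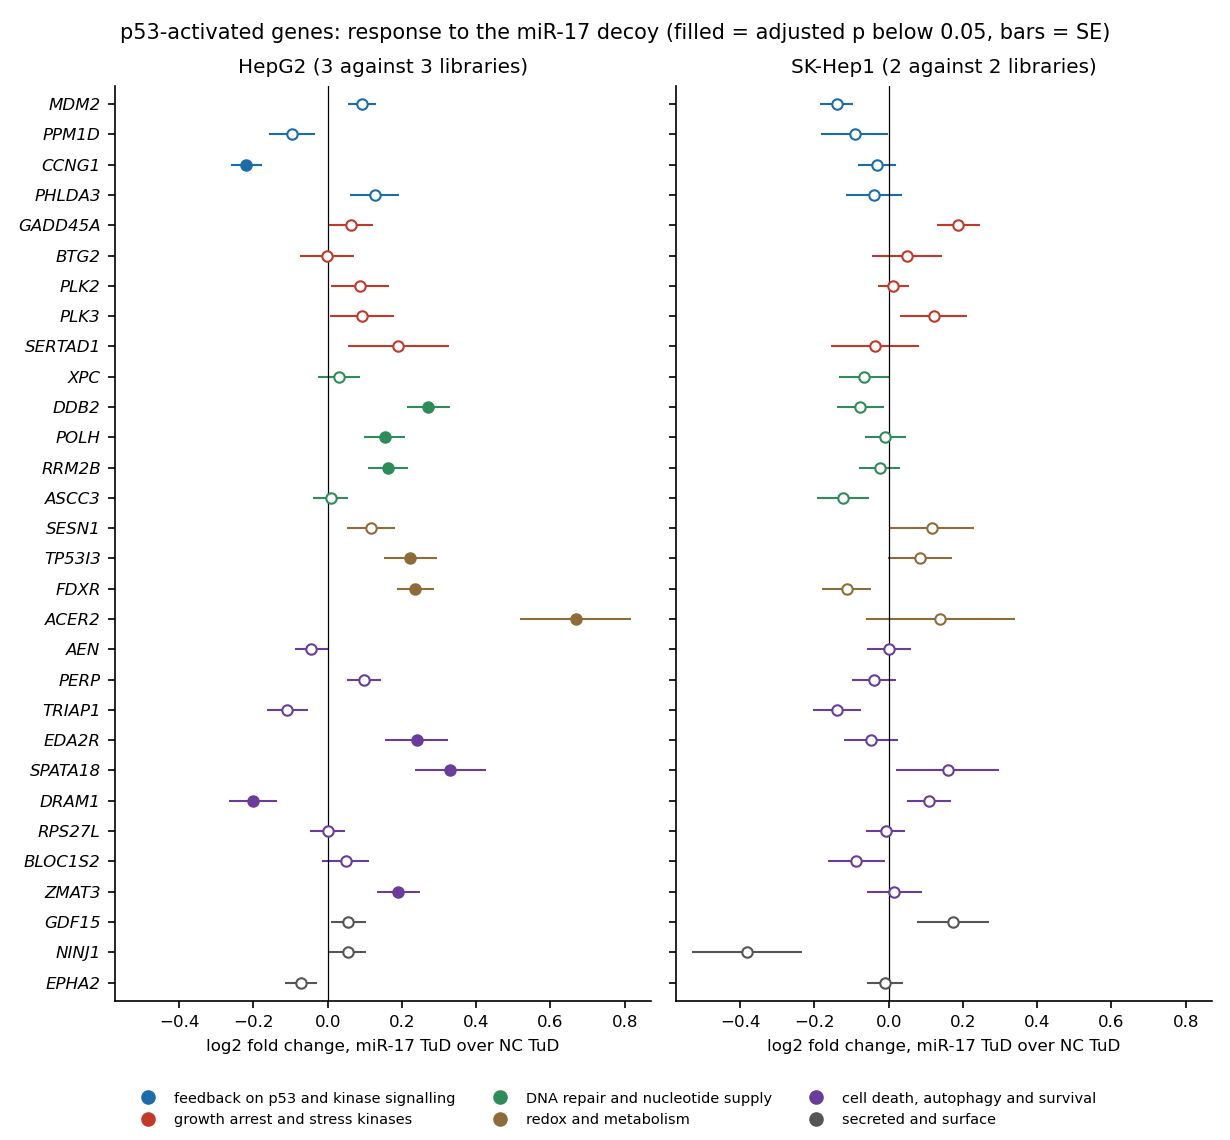
Log2 fold change of miR-17 TuD over NC TuD for each of the 30 p53-activated genes, with HepG2 in the left panel and SK-Hep1 in the right panel. Points are edgeR estimates, bars are standard errors, colours mark the role groups, and filled points passed an adjusted p below 0.05; the 11 filled points are all in the HepG2 panel, 9 to the right of 0 and 2 to the left.

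**Figure D2:**
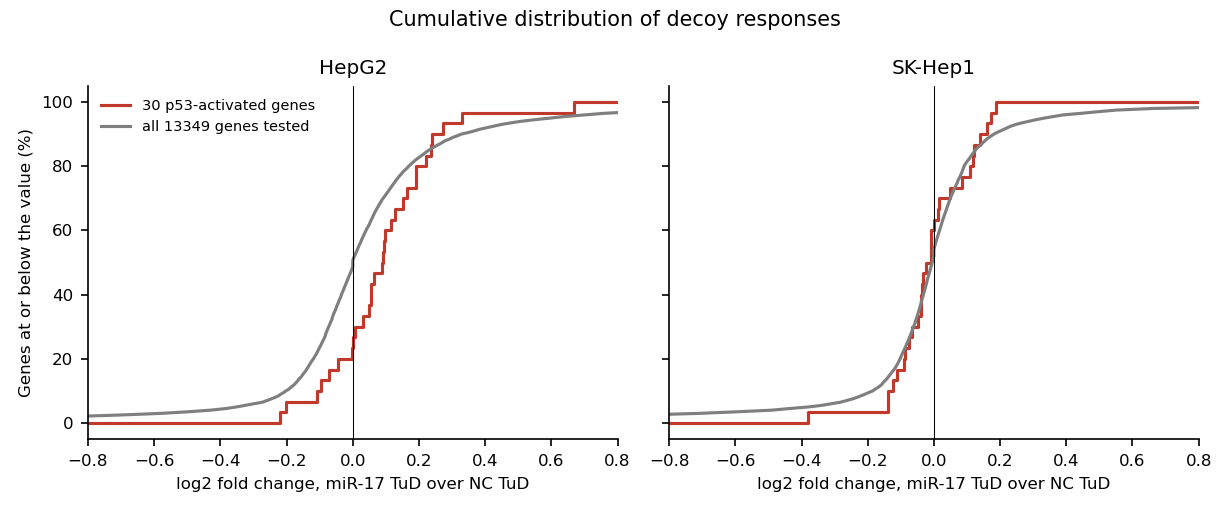
Share of genes (percent) at or below each log2 fold change of miR-17 TuD over NC TuD, for the 30 p53-activated genes (stepped line) and all 13349 genes tested (smooth line). In HepG2 the stepped line lies to the right of the smooth line around the middle, with medians of 0.09 and 0, while in SK-Hep1 the medians are -0.02 and -0.01.

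Genes of metabolism and redox balance held the largest rise. ACER2, a ceramidase of the Golgi that releases sphingosine, had 6.93, 6.62 and 6.98 CPM in the HepG2 miR-17 TuD libraries, against 3.57, 4.85 and 4.51 CPM in the NC TuD libraries. The groups did not overlap, and ACER2 was 1.59-fold higher, a log2 fold change of 0.67 ± 0.15 (SE, edgeR adjusted p = 0.000569, n = 3 per group). FDXR, the mitochondrial ferredoxin reductase, had 169, 190.0 and 154 CPM in miR-17 TuD and 145, 141 and 151 CPM in NC TuD. Library 3 of miR-17 TuD came close to the highest NC TuD library, and the log2 fold change was 0.24 ± 0.05 (edgeR adjusted p = 0.000382). TP53I3, which encodes a quinone oxidoreductase, had 36.8, 35.6 and 32.1 CPM in miR-17 TuD and 31.7, 28.1 and 29.8 CPM in NC TuD. The groups were close but did not overlap. It rose by 0.22 ± 0.07 (edgeR adjusted p = 0.0189), but the call was lost without miR-17 TuD library 1 (adjusted p = 0.136), miR-17 TuD library 2 (0.0652) or NC TuD library 2 (0.11). The other member of the group, SESN1, a stress protein that restrains growth signalling through mTORC1, had a log2 fold change of 0.12 ± 0.06 (edgeR adjusted p = 0.215).

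Of the 5 genes of DNA repair and nucleotide supply, 3 rose in HepG2. DDB2, which finds ultraviolet damage in DNA, had 62.4, 53.7 and 57.0 CPM in miR-17 TuD and 50.4, 47.6 and 45.4 CPM in NC TuD. Every miR-17 TuD library was above every NC TuD library, with a log2 fold change of 0.27 ± 0.06 (edgeR adjusted p = 0.000392). RRM2B, the p53-induced subunit of ribonucleotide reductase, had 59.1, 59.7 and 62.6 CPM in miR-17 TuD and 54.9, 55.6 and 51.5 CPM in NC TuD, a rise of 0.16 ± 0.05 (edgeR adjusted p = 0.0265). Its call was lost without miR-17 TuD library 3 (adjusted p = 0.0853), NC TuD library 1 (0.0505) or NC TuD library 3 (0.133). POLH, the polymerase that copies past ultraviolet lesions, had 55.4, 52.8 and 53.6 CPM in miR-17 TuD and 50.3, 46.2 and 48.9 CPM in NC TuD. The groups did not overlap, and the log2 fold change was 0.15 ± 0.06 (edgeR adjusted p = 0.044). It lay close to the threshold, and its call was lost on leaving out any 1 library other than NC TuD library 1 of HepG2, SK-Hep1 libraries included, with an adjusted p of 0.0513 to 0.195.

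The other 2 repair genes did not pass. XPC, which recognises distorted DNA for nucleotide excision repair, had 56.0, 55.6 and 58.7 CPM in miR-17 TuD and 54.6, 55.7 and 56.4 CPM in NC TuD, with a log2 fold change of 0.03 ± 0.06 (edgeR adjusted p = 0.793). ASCC3, a helicase used in the repair of alkylated DNA, had a value of 0.01 ± 0.05 (edgeR adjusted p = 0.957).

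The promoter of DDB2 is shown because it holds the closest match to the p53 element among the promoters of the members. The search took a pair of p53 half-sites no more than 1 base apart, with at most 2 mismatches outside the central bases of the half-sites, on both strands of the window from 250 bases before to 50 bases after the gene start (RefSeq, GRCh38.p14). Such an element was in 97 of 35116 windows, or 0.276%. By gene, it was found for 2 of the 26 members that had a window, or 7.69%. The first share counts windows and the second counts genes, so they are not like measures. The match in DDB2 starts 5 bases after the gene start and has 0 mismatches, and that in AEN starts 34 bases before it and has 2. Capitals mark the element, read on the plus strand.
DDB2, chr11:47214975-47215004: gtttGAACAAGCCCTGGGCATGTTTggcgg
AEN, chr15:88621301-88621330: gagccGGGCTTGCCCGGGCATGTGGgagct
DDB2 rose in HepG2 as given above, while AEN, a nuclease induced by p53, had a log2 fold change of -0.04 ± 0.04 (edgeR adjusted p = 0.561). Many p53 elements lie in introns or far from the start, outside these windows.

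Of the 9 genes of cell death, autophagy and survival, 3 rose and 1 fell in HepG2. SPATA18, which acts in the quality control of mitochondria, had 15.9, 16.8 and 19.0 CPM in miR-17 TuD and 14.8, 12.4 and 13.7 CPM in NC TuD. It rose by 0.33 ± 0.10 (edgeR adjusted p = 0.00915), and the call was lost without miR-17 TuD library 3 (adjusted p = 0.0688) or NC TuD library 2 (0.0708). EDA2R, a death-domain-free receptor of the tumour necrosis factor family for ectodysplasin A2, had 19.5, 18.6 and 20.5 CPM in miR-17 TuD and 16.6, 17.2 and 15.9 CPM in NC TuD. It rose by 0.24 ± 0.08 (edgeR adjusted p = 0.0348). This call was lost without miR-17 TuD library 1 (adjusted p = 0.0837), miR-17 TuD library 3 (0.113), NC TuD library 1 (0.0861) or NC TuD library 3 (0.116). ZMAT3, an RNA-binding zinc-finger protein, had 65.5, 59.5 and 67.6 CPM in miR-17 TuD and 55.2, 56.3 and 57.1 CPM in NC TuD. It rose by 0.19 ± 0.06 (edgeR adjusted p = 0.0146), and the call did not hold without miR-17 TuD library 1 (adjusted p = 0.0757), miR-17 TuD library 3 (0.0684) or NC TuD library 1 (0.0744).

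DRAM1, a lysosomal membrane protein of autophagy, went the other way. It had 35.2, 34.4 and 36.9 CPM in miR-17 TuD and 43.8, 42.8 and 36.0 CPM in NC TuD, a log2 fold change of -0.20 ± 0.07 (edgeR adjusted p = 0.0217). Library 3 of NC TuD lay inside the miR-17 TuD range, so the groups overlapped. The call was lost without miR-17 TuD library 1 (adjusted p = 0.0754), miR-17 TuD library 2 (0.0836), NC TuD library 1 (0.201) or NC TuD library 2 (0.0976). The other 5 genes of the group did not pass the test. PERP, a membrane protein of desmosomes, was at 0.10 ± 0.05 (edgeR adjusted p = 0.124), and TRIAP1, an inhibitor of apoptosis in mitochondria, at -0.11 ± 0.05 (adjusted p = 0.168). RPS27L, a close copy of the ribosomal gene RPS27 with which it may share reads, and BLOC1S2, a subunit of a lysosome-positioning complex, were at 0.00 ± 0.05 and 0.05 ± 0.06.

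Among the 4 genes that feed back on p53 or on kinase signalling, 1 fell in HepG2 and none rose. CCNG1, cyclin G1, which recruits a phosphatase to MDM2, had 181, 177 and 194 CPM in miR-17 TuD and 222, 222 and 198 CPM in NC TuD. All 3 miR-17 TuD libraries were below all 3 NC TuD libraries, and the log2 fold change was -0.22 ± 0.04 (edgeR adjusted p = 9.02e-05). MDM2, the ligase that degrades p53, had 325, 317 and 348 CPM in miR-17 TuD and 317, 314 and 297 CPM in NC TuD. The groups touched, and the log2 fold change of 0.09 ± 0.04 did not pass (edgeR adjusted p = 0.0791), although it did without miR-17 TuD library 2 (adjusted p = 0.0301) and with DESeq2's size factors in place of TMM (0.0496). PPM1D, a phosphatase that switches off p53 and its kinases, was at -0.10 ± 0.06 (edgeR adjusted p = 0.318). PHLDA3, which competes with AKT for membrane lipids, was at 0.13 ± 0.07 (adjusted p = 0.192) and passed without miR-17 TuD library 3, at 0.20 ± 0.06 (adjusted p = 0.0155).

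No gene of growth arrest and stress kinases (0 of 5) and no secreted or surface gene (0 of 3) passed the test in HepG2. Log2 fold changes of GADD45A, BTG2, PLK2, PLK3 and SERTAD1 ran from -0.00 to 0.19. GDF15, a secreted stress hormone and the most abundant member of HepG2, had 396, 416 and 349.7 CPM in miR-17 TuD and 375, 347 and 396 CPM in NC TuD. These ranges overlapped almost fully, and the value was 0.06 ± 0.05 (edgeR adjusted p = 0.477). Without miR-17 TuD library 3 it was 0.12 ± 0.04 and passed (adjusted p = 0.0193). NINJ1, which tears the membrane of dying cells, and EPHA2, an ephrin receptor, were at 0.05 ± 0.05 and -0.07 ± 0.04.

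Calls of 4 members, ACER2, DDB2, FDXR and CCNG1, held in HepG2 under all 17 other settings and left-out libraries tried. In HepG2, 8.58% of all genes tested were called lower and 10.7% higher in miR-17 TuD than in NC TuD. In the same libraries, 9 of 12 hepatocyte genes were lower and 1 was higher. All 5 epithelial markers were higher. The part of this shift in the values of the p53-activated genes was not tested. In bulk RNA, a change in the share of cells that express a gene and a change in its RNA per cell cannot be told apart.

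**Figure D3:**
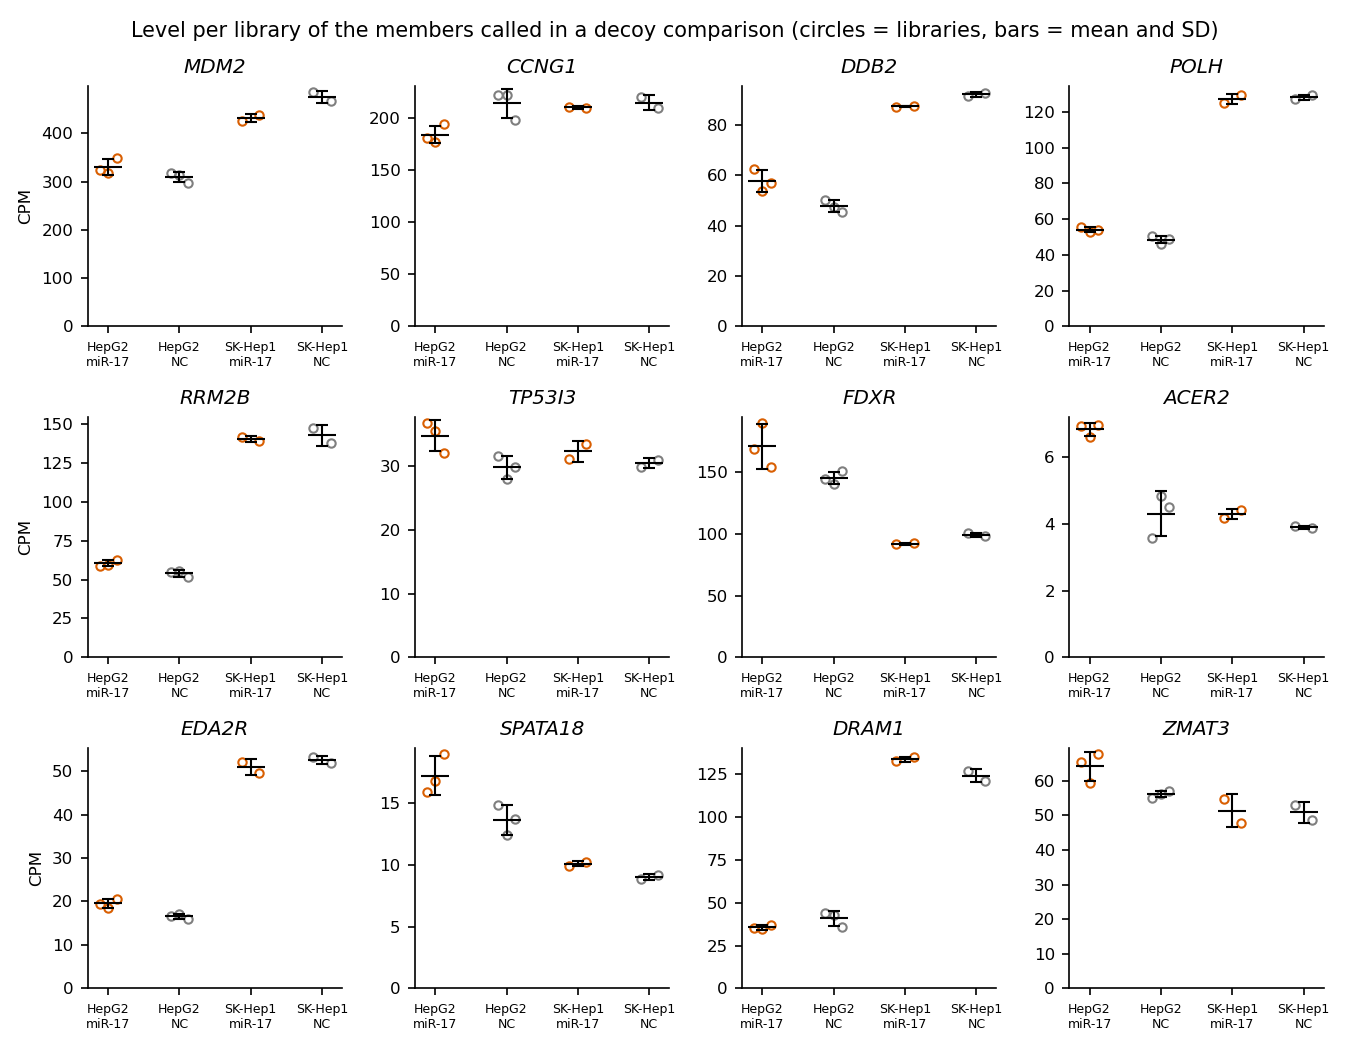
Level in CPM of each library (open circles) for the 12 members called in HepG2 or in the comparison of the responses, in the 4 groups from left to right: HepG2 miR-17 TuD, HepG2 NC TuD, SK-Hep1 miR-17 TuD and SK-Hep1 NC TuD. Bars are the mean and SD; ACER2 averaged 6.84 and 4.31 CPM in the HepG2 groups, without overlap, and 4.30 and 3.90 CPM in the SK-Hep1 groups.

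In SK-Hep1 the same comparison called 0 of the 30 members, where 0.869% of all genes tested were called (0.667% higher and 0.202% lower). At an unadjusted p below 0.05, 4 members passed edgeR's test (MDM2, GADD45A, TRIAP1 and NINJ1), while 8.36% of all genes did. DESeq2 called 0 members as well, and so did limma on the deposited log2 values. The log2 fold changes lay between -0.38 and 0.19, with a median of -0.02. Of these, 11 were positive (36.7%) and 19 negative, where 46.0% over all genes tested were positive. Of the 30, 7 were higher and 7 lower without overlap between the 2 libraries of each group, patterns found in 18.4% and 21.9% of all genes.

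The members nearest to a call in SK-Hep1 were GADD45A and MDM2. GADD45A, which halts the cycle by binding cell cycle proteins, had 143 and 129 CPM in miR-17 TuD and 116 and 122 CPM in NC TuD, a log2 fold change of 0.19 ± 0.06 (edgeR adjusted p = 0.128). MDM2 had 427 and 438 CPM in miR-17 TuD and 485 and 467 CPM in NC TuD, a log2 fold change of -0.14 ± 0.04 (edgeR adjusted p = 0.157). Neither gene's groups overlapped. In a fit to the 4 SK-Hep1 libraries alone both passed, GADD45A at 0.19 ± 0.05 (edgeR adjusted p = 0.0143) and MDM2 at -0.13 ± 0.03 (adjusted p = 0.00955). NINJ1 had the lowest value, -0.38 ± 0.15 (edgeR adjusted p = 0.354), on 6.27 and 6.23 CPM in miR-17 TuD and 7.59 and 8.67 CPM in NC TuD.

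DDB2, XPC, CCNG1, RRM2B and GDF15 did not pass in SK-Hep1. DDB2 had 87.3 and 87.6 CPM in miR-17 TuD and 91.5 and 92.9 CPM in NC TuD, at -0.08 ± 0.06, and XPC was at -0.07 ± 0.07. CCNG1 had 211 and 209 CPM in miR-17 TuD and 219.7 and 209 CPM in NC TuD, at -0.03 ± 0.05. RRM2B was at -0.02 ± 0.05 and GDF15 at 0.17 ± 0.10. Adjusted p-values of these 5 genes by edgeR ran from 0.662 to 0.96. In simulated counts a 1.25-fold change was recovered in 68% of changed genes in SK-Hep1, with 2 libraries per group, and in 86% in HepG2. The simulations called similar numbers of genes, 188 for SK-Hep1 and 201 for HepG2. The measured data called 116 in SK-Hep1 and 2571 in HepG2. The adjusted p depends on how many genes change, so recovery in the measured data may differ from these rates.

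Whether the 2 lines responded differently was tested as the SK-Hep1 response minus the HepG2 response, each being miR-17 TuD over NC TuD. The difference passed for 4 of the 30 members, 3 below 0 and 1 above, where 3.75% of all genes passed (2.51% below 0 and 1.24% above). FDXR was at -0.11 ± 0.07 in SK-Hep1 and 0.24 ± 0.05 in HepG2, a difference of -0.35 ± 0.08 (edgeR adjusted p = 0.00768). DDB2 was at -0.08 ± 0.06 in SK-Hep1 and 0.27 ± 0.06 in HepG2, a difference of -0.35 ± 0.09 (edgeR adjusted p = 0.00967). For MDM2 the values were -0.14 ± 0.04 in SK-Hep1 and 0.09 ± 0.04 in HepG2, and the difference was -0.23 ± 0.06 (edgeR adjusted p = 0.0116). DRAM1 was the reverse case, with 0.11 ± 0.06 in SK-Hep1 and -0.20 ± 0.07 in HepG2 and a difference of 0.31 ± 0.09 (edgeR adjusted p = 0.0314).

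For the other 26 members the difference did not pass, ACER2 (-0.53 ± 0.25, edgeR adjusted p = 0.295) and CCNG1 (0.19 ± 0.07, adjusted p = 0.117) among them. CCNG1 passed without miR-17 TuD library 3 (adjusted p = 0.0271) or NC TuD library 3 (0.0188) of HepG2. The FDXR call was lost without SK-Hep1 NC TuD library 1 (adjusted p = 0.0559), and the DDB2 call without HepG2 miR-17 TuD library 1 (0.0796) or SK-Hep1 NC TuD library 2 (0.0544). The MDM2 call was lost without SK-Hep1 NC TuD library 1 (0.101) or SK-Hep1 miR-17 TuD library 1 (0.0972). DRAM1 lost its call on leaving out any of 7 libraries, with adjusted p-values of 0.0642 to 0.173, and limma on the deposited log2 values called 0 of the 4.

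The lines also differed from each other with the control decoy alone. There, 15 members were higher and 11 lower in SK-Hep1 than in HepG2, shares of 50% and 36.7%, where 43.9% of all genes tested were higher and 42.8% lower. The members' count is thus near that of all genes, of which 86.7% were called in either direction. The median log2 fold change of the members was 0.09, and of all genes 0.02.

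PLK2, a polo-like kinase of the stress response, stood furthest apart. It had 854 and 816 CPM in SK-Hep1 NC TuD, against 15.5, 16.3 and 16.3 CPM in HepG2 NC TuD, a 52.0-fold difference (log2 5.70 ± 0.05, edgeR adjusted p = 5.74e-64). EDA2R was at 53.2 and 51.9 CPM in SK-Hep1 NC TuD and 16.6, 17.2 and 15.9 CPM in HepG2 NC TuD (log2 1.67 ± 0.08), with no overlap. DRAM1 was at 127 and 121 CPM in SK-Hep1 NC TuD and 43.8, 42.8 and 36.0 CPM in HepG2 NC TuD (log2 1.60 ± 0.06). RRM2B and POLH, both of DNA repair and synthesis, were each 1.40 higher on the log2 scale, with SE of 0.05 and 0.06. SERTAD1, a regulator of CDK4, was 1.28 ± 0.13 higher. The edgeR adjusted p-values of these 6 genes were at most 1.04e-13.

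NINJ1 and GDF15 lay at the other end. NINJ1 had 7.59 and 8.67 CPM in SK-Hep1 NC TuD, against 105, 98.1 and 108 CPM in HepG2 NC TuD, and was 12.7-fold lower (log2 -3.67 ± 0.08, edgeR adjusted p = 2.34e-43). GDF15 had 28.4 and 30.5 CPM in SK-Hep1 NC TuD and 375, 347 and 396 CPM in HepG2 NC TuD, 12.6-fold lower (log2 -3.66 ± 0.07, edgeR adjusted p = 3.1e-31). SESN1 (-1.72 ± 0.09), ASCC3 (-1.27 ± 0.06), PPM1D (-0.88 ± 0.08) and AEN (-0.71 ± 0.05) followed, with edgeR adjusted p-values of at most 4.25e-16. The role groups were small and mixed. In SK-Hep1, 4 of 5 repair genes and 4 of 5 genes of growth arrest and stress kinases were higher. Of 4 redox and metabolic genes, 2 were lower and none was higher. Of 9 genes of cell death, autophagy and survival, 4 were higher and 4 lower. Of 4 feedback genes 2 were higher and 1 lower, and of 3 secreted and surface genes 1 was higher and 2 lower. Among all genes tested, 43.9% were higher and 42.8% lower. CCNG1, TP53I3, ACER2 and BLOC1S2 did not pass, at log2 values from -0.14 to 0.03.

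Levels between genes were compared per length, as CPM divided by the kilobases of annotated exon. By this measure PLK2 was the highest member in SK-Hep1 NC TuD at 282 ± 9.20, followed by CCNG1 at 86.9 ± 2.92, GADD45A at 79.7 ± 2.74 and EPHA2 at 77.3 ± 0.0702. In HepG2 NC TuD the highest was GDF15 at 311 ± 20.4, followed by CCNG1 at 86.7 ± 5.59, NINJ1 at 81.0 ± 4.05 and FDXR at 61.7 ± 2.2 (SD). The intervals of CCNG1 and NINJ1 in HepG2, and of GADD45A and EPHA2 in SK-Hep1, overlapped. ACER2 was the lowest in both, at 1.74 ± 0.0190 in SK-Hep1 NC TuD and 1.93 ± 0.295 in HepG2 NC TuD. The median over members was 20.7 in SK-Hep1 NC TuD and 14.0 in HepG2 NC TuD. Division by all annotated exons understates genes whose cells use short forms of a long transcript.

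**Figure D4:**
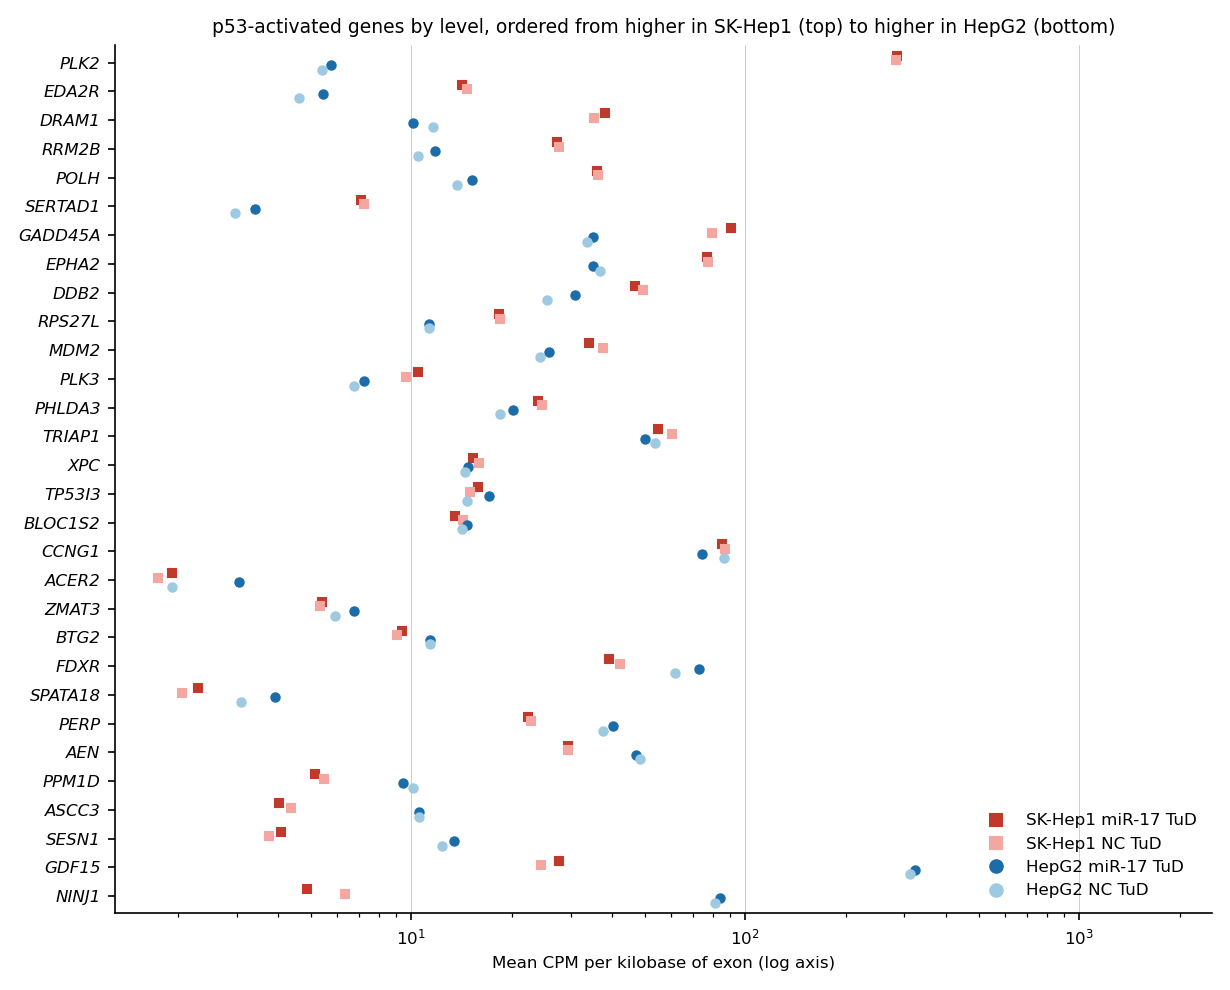
Mean level of each of the 30 members per length (CPM per kilobase of annotated exon, log axis) in the 4 groups, with squares for SK-Hep1 and circles for HepG2 and the darker shade for miR-17 TuD. Genes run from highest in SK-Hep1 relative to HepG2 at the top (PLK2, 282 in SK-Hep1 NC TuD and 5.42 in HepG2 NC TuD) to lowest at the bottom (NINJ1, 6.34 and 81.0), and for PLK2, GDF15 and NINJ1 the squares and circles are far further apart than the 2 shades of either line.

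Other genes of the pathway were counted from a second list of 25 p53-induced genes. Of the 23 tested, 10 were higher and none lower in HepG2 miR-17 TuD than in NC TuD, and the median log2 fold change was 0.21. Among all genes tested, 10.7% were higher and 8.58% lower. The 10 included CDKN1A, the inhibitor of cyclin-dependent kinases that carries out the p53 arrest. It had 216, 222 and 206 CPM in miR-17 TuD and 161, 161 and 166 CPM in NC TuD (log2 0.40 ± 0.04, edgeR adjusted p = 3.6e-12). FAS, the death receptor, had 28.4, 28.5 and 28.7 CPM in miR-17 TuD and 20.0, 21.8 and 21.0 CPM in NC TuD (log2 0.45 ± 0.08, edgeR adjusted p = 7.32e-06). KITLG, the ligand of the receptor KIT, rose by 0.62 ± 0.08 (edgeR adjusted p = 1.77e-08), with 35.8, 35.6 and 38.8 CPM in miR-17 TuD and 22.8, 27.7 and 21.5 CPM in NC TuD. Neither gene's groups overlapped. TRIM22, an antiviral ubiquitin ligase, rose by 1.25 ± 0.28 (edgeR adjusted p = 0.00047) on low levels of 1.61, 2.41 and 2.27 CPM in miR-17 TuD and 0.948, 0.954 and 0.728 CPM in NC TuD.

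The other 6 were GLS2, a mitochondrial glutaminase (0.37 ± 0.09), KIAA0247, now named SUSD6 (0.32 ± 0.07), TP53INP1, which promotes autophagy and cell death (0.27 ± 0.08), PIDD, a scaffold of caspase activation (0.26 ± 0.06), CYFIP2, a regulator of actin (0.26 ± 0.05), and APAF1, the core of the apoptosome (0.22 ± 0.07). Their edgeR adjusted p-values ran from 0.00024 for CYFIP2 to 0.0191 for APAF1. The calls of GLS2, TP53INP1 and APAF1 were lost without NC TuD library 1 (adjusted p = 0.0536, 0.187 and 0.153), that of TP53INP1 also without miR-17 TuD library 1 (0.0834), and that of APAF1 also without miR-17 TuD library 3 (0.189). BAX and BBC3, which open mitochondria in apoptosis, were at 0.04 ± 0.05 and 0.01 ± 0.10 and did not pass. In SK-Hep1, 1 of the 23 passed, where 0.869% of all genes tested did (0.667% higher and 0.202% lower). This was TNFRSF10B, a death receptor, at 0.18 ± 0.05 (edgeR adjusted p = 0.0362), with 226 and 216 CPM in miR-17 TuD and 191 and 198 CPM in NC TuD. Its call was lost on leaving out any SK-Hep1 library or HepG2 miR-17 TuD library 1, with adjusted p-values of 0.0678 to 0.6. CDKN1A was at 0.16 ± 0.04 in SK-Hep1 (adjusted p = 0.0516).

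Of 18 tested regulators and partners of p53, 2 rose (11.1%) and 1 fell (5.56%) in HepG2, shares near the 10.7% and 8.58% of all genes. None passed edgeR's test in SK-Hep1. Without adjustment 4 of the 18 passed there, a larger share than the 8.36% of all genes. In SK-Hep1, 9 of the 18 were lower and 1 higher without overlap, patterns found in 21.9% and 18.4% of all genes. TP73, a relative of p53, rose by 0.47 ± 0.12 (edgeR adjusted p = 0.00279), and CHEK2, a kinase that activates p53, was at -0.22 ± 0.06 (adjusted p = 0.00804). Both calls were lost without HepG2 miR-17 TuD library 2 (adjusted p = 0.0677 and 0.0733).

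CDKN2A, whose ARF product holds MDM2 back from p53, had 3.99, 4.82 and 3.18 CPM in HepG2 miR-17 TuD and 2.70, 2.46 and 2.98 CPM in HepG2 NC TuD (log2 0.56 ± 0.20, edgeR adjusted p = 0.0373). The call was lost without miR-17 TuD library 1 (adjusted p = 0.0842), miR-17 TuD library 2 (0.261), NC TuD library 1 (0.106) or NC TuD library 2 (0.124). In SK-Hep1 it had 0 counts in all 4 libraries, where the limit allowed by a count of 0, which is 3 counts, would be 0.197 to 0.224 CPM. MDM4, the partner of MDM2, was at -0.13 ± 0.08 in HepG2 (edgeR adjusted p = 0.254) and -0.18 ± 0.08 in SK-Hep1 (adjusted p = 0.528). With the control decoy MDM4 was 0.54 ± 0.08 higher in SK-Hep1.

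**Figure D5:**
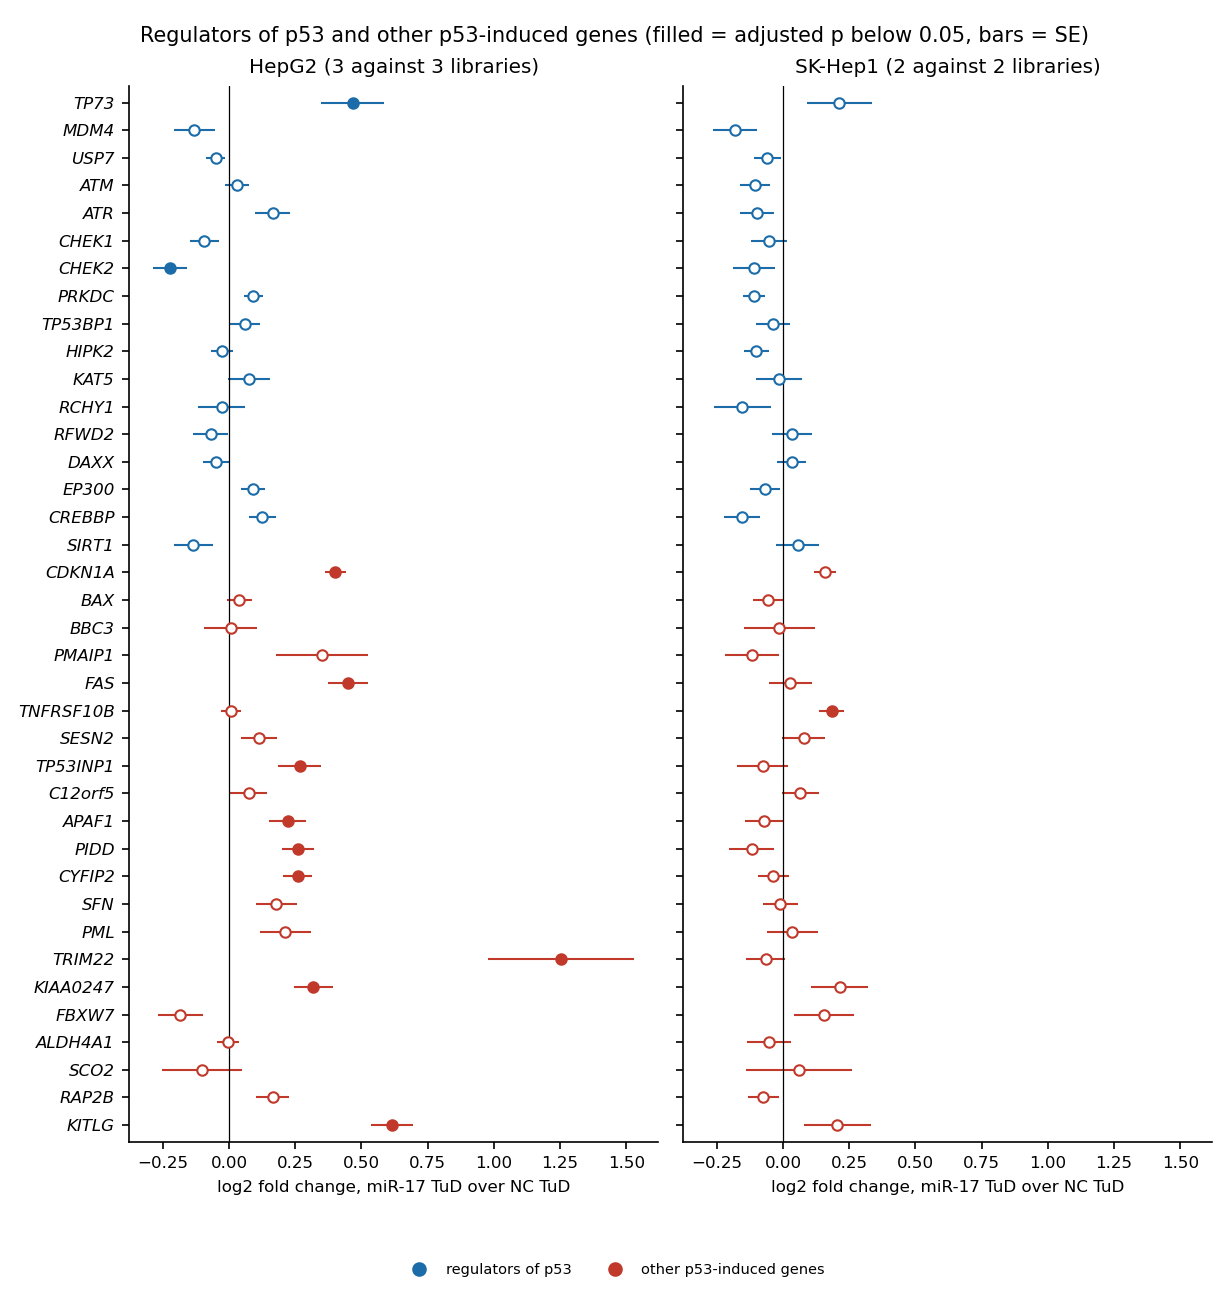
Log2 fold change of miR-17 TuD over NC TuD for regulators of p53 and for other p53-induced genes, HepG2 on the left and SK-Hep1 on the right, with edgeR estimates as points, standard errors as bars, and filled points for an adjusted p below 0.05. CDKN2A, CD82 and GLS2, each near 0 CPM in 1 of the lines, are not drawn, while TRIM22, also low in HepG2, is. CD82 had the lowest log2 fold change of the p53-induced genes in HepG2, -1.90, and did not pass. The filled point furthest right in HepG2 is TRIM22 at 1.25, and the single filled point in SK-Hep1 is TNFRSF10B at 0.18.

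Seed matches show which members could be bound by the microRNAs that the decoy targets, where the cells use the searched part of the transcript. Which transcript ends these cells use was not analysed, so some matches in long regions may be absent from their RNA. The family shares the seed at nucleotides 2 to 8, in capitals in these mature sequences (RefSeq, GRCh38.p14), of which miR-17-5p is at chr13:91350618-91350640 on the plus strand.
hsa-miR-17-5p: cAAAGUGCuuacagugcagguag
hsa-miR-20a-5p: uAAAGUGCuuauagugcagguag
hsa-miR-93-5p: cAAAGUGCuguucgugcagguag
hsa-miR-106b-5p: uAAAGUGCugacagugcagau
A match to the whole seed is GCACTTT on the messenger's strand (7mer-m8, or 8mer when followed by A), and CACTTTA is the weaker 7mer-A1. In the longest 3′ untranslated region of each gene (GENCODE 29, GRCh38), a match to the whole seed was found in 7 of the 30 members, or 23.3%, and in 24.9% of the 13228 tested genes with a region to search. These were MDM2, POLH, AEN, EDA2R, DRAM1, RPS27L and ZMAT3. A 7mer-A1 alone was in 4 more (BTG2, SESN1, ACER2 and PERP), or 13.3%, against 6.22% of genes, and 19 members had none.

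Of the 7 members with a whole-seed match, 3 rose and 1 fell in HepG2, and of the 19 with no match 5 rose and 1 fell. Over all genes of the same classes, 15.2% with a whole-seed match and 9.22% with none were called higher in HepG2. The median log2 fold changes of the members with a whole-seed match and with none were 0.09 and 0.06, against 0.02 and -0.00 over all genes of those classes. DDB2, FDXR, RRM2B, SPATA18 and TP53I3 rose with no match, and so did ACER2 with a 7mer-A1 alone. The 8mers were in AEN and EDA2R. These, the first whole-seed match of MDM2 and the 7mer-A1 of ACER2, the member with the largest rise, are shown because they lie in 3 genes that rose or feed back on p53 and in AEN, whose promoter is given above. Capitals mark the match, on the strand of the gene.
EDA2R, 8mer, chrX:66597714-66597743, minus strand: acatctacctaGCACTTTAgggacaaaatc
AEN, 8mer, chr15:88630515-88630544, plus strand: ttttgctaatgGCACTTTAcagactccatg
MDM2, first whole-seed match, chr12:68846866-68846895, plus strand: gcaggtagtaaGCACTTTtaatgaatggaa
ACER2, chr9:19451521-19451550, plus strand: aacctacactcCACTTTAggcccttcttga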

How the data were processed

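The authors deposited raw counts per gene symbol for each of 10 libraries and a log2 matrix of all libraries, normalized with limma's voom per the series text. Libraries were made from 150 ng of total RNA with a kit that does not record strand and read as 50 bp pairs, per the labels' protocols. Per the submitters' processing notes, STAR aligned reads to hg19 and HTSeq 0.5.4p5 counted them. The series text differs, naming Bowtie, TopHat, RSEM and a mouse genome. Entries for reads outside genes, ambiguous or not uniquely aligned made up 19.3% to 22.3% of each column and were left out. Counts were tested with edgeR 4.0.16 (R 4.3.3): filterByExpr, TMM, a robust quasi-likelihood fit with 4 group means over all 10 libraries, two-sided, with Benjamini-Hochberg adjustment over 13349 genes at 0.05. SE is the log2 fold change over the root of F. Chi-square over degrees of freedom between replicates was 1.39 to 3.59, so none was a repeat of another within counting noise. On simulated counts for 13248 genes, the HepG2 comparison recovered 86%, 98%, 100% and 100% of 1.25-, 1.5-, 2- and 3-fold changes with 9 false calls among 201, and for 13272 genes the SK-Hep1 comparison 68%, 94%, 100% and 100% with 7 false among 188. DESeq2 1.42.0, limma 3.58.1 on the log2 matrix, other scaling, no filter, a replicate block and leaving out each library were alternatives. Seed matches, exon lengths and 3′ untranslated regions came from GENCODE 29 (GRCh38) and promoters and microRNAs from RefSeq. The members and the gene lists were chosen with earlier results of these data known. Members called in a decoy comparison are named with all values, along with MDM2, CCNG1, DDB2, XPC, GDF15 and RRM2B in any case, the 6 largest calls per direction between the lines, and called genes of the other lists. Results on 1 gene of the pathway lists and on some seed-match windows are not reported here.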

Additional observations from a re-analysis of the deposited data

Results flagged for a closer look

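The decoy response differed between the lines for 11 of the 30 members, 23 other p53-induced genes and 18 regulators tested. The test was edgeR's, on the SK-Hep1 response minus the HepG2 response (log2 scale, all genes adjusted together). Of all genes tested, 3.75% passed it, 2.51% below 0 and 1.24% above. Among the 30 members the genes that passed were FDXR (-0.35), DDB2 (-0.35), MDM2 (-0.23) and DRAM1 (0.31), described above. Among other p53-induced genes they were TRIM22 (-1.32 ± 0.28, edgeR adjusted p = 0.00201), FAS (-0.42 ± 0.11, adjusted p = 0.0173), PIDD (-0.38 ± 0.10, adjusted p = 0.0254), CYFIP2 (-0.30 ± 0.08, adjusted p = 0.0228) and CDKN1A (-0.24 ± 0.06, adjusted p = 0.00604). Among regulators they were CREBBP, an acetyltransferase that assists p53 (-0.28 ± 0.08, edgeR adjusted p = 0.0471), and PRKDC, a kinase of DNA break repair (-0.20 ± 0.05, adjusted p = 0.0199). The TRIM22 difference passed under all 16 alternatives tried for it, and each of the other 10 was lost under at least 2. In SK-Hep1, TRIM22 had 62.7 and 65.5 CPM in miR-17 TuD and 71.2 and 63.1 CPM in NC TuD.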

How the results depend on the processing

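No called value that was recomputed changed sign under an alternative. These were the called members and other pathway genes of the decoy comparisons and, between the lines, the 6 largest calls per direction and MDM4. The number of members called in HepG2, 11 as reported, was 6 with DESeq2, 7 with limma on the deposited log2 matrix and 6 to 10 when 1 library was left out, and every member still called by DESeq2, limma or with a replicate block was among the 11. In SK-Hep1 it was 2 in a fit to that line alone and 0 to 0 when 1 library was left out. For the difference between the responses, 4 as reported, it was 0 with limma on the matrix and 2 to 5 when 1 library was left out. For the lines with the control decoy it was 24 to 26 when 1 library was left out. Where a group was left with 1 library, its spread was taken from the other groups. With the replicate number as a block within each line, 7 members were called in HepG2, 0 in SK-Hep1 and 2 for the difference. The numbers did not pair the samples. Same-numbered libraries correlated at 0.07, -0.42 and -0.38 in HepG2 and -0.11 in SK-Hep1 over 8071 genes, after removing group means. Some different-numbered HepG2 libraries did correlate: miR-17 TuD library 3 with NC TuD library 2 at 0.46, and miR-17 TuD library 2 with NC TuD library 3 at 0.37. The remaining different-numbered HepG2 pairs lay between -0.14 and 0.10. A block by the correlated HepG2 pairs was not tried, so a batch shared across numbers remains possible. With the SK-Hep1 numbers crossed, a pairing chosen after seeing the data, 7 members were called in HepG2 and 2 for the difference. The causes of these changes were not tested. The median log2 fold change of the members over the alternatives was 0.06 to 0.10 in HepG2 and -0.04 to -0.00 in SK-Hep1. Most calls were smaller than the 1.25-fold change that was the smallest simulated, so recovery at their size is unknown.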
